A study of Homo sapiens with 30 samples.

Results

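The SH3BP2 locus was followed here through every H3K4me3 and H3K27ac peak that lies inside the gene SH3BP2 or within 100 kb of it, in all 12 libraries of the 2 marks. The gene was chosen by its H3K4me3 values at 500 nM JIB-04 against DMSO, where its peak gained more signal than any other peak that met the same conditions, so those values are given as a description, without a test. The locus held 34 of the 84848 peaks in the 2 tables, namely 10 of 21268 for H3K4me3 and 24 of 63580 for H3K27ac. Each of the 10 H3K4me3 peaks had enough reads to be tested, as did 23 of the 24 for H3K27ac. The remaining H3K27ac peak, chr4:2709673-2709895 in FAM193A, held between 2 and 12 reads per library.

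Chromatin immunoprecipitation sequencing was done on OCI-Ly1, an established line of human diffuse large B-cell lymphoma. The cells received 150 nM JIB-04, 500 nM JIB-04 or 0.01% DMSO as the vehicle, with 2 libraries per treatment and mark. All groups are this 1 line, and the labels name no other agent or genetic change. The length of treatment is not given in the sources used here, nor is it stated that replicates came from separate cultures, so the p-values below measure the spread between these libraries, which may be technical.

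JIB-04 is a small molecule that inhibits Jumonji-type histone demethylases, a family that includes enzymes which remove methyl groups from lysine 4 of histone H3. H3K4me3 is the trimethylated form of that lysine and marks the start sites of active or poised genes, while H3K27ac marks active starts and enhancers. SH3BP2 encodes an adapter protein with a PH and an SH2 domain that links SRC and SYK family kinases to VAV and phospholipase C gamma in blood cells, B cells among them. Its protein level is held down by tankyrase and the ubiquitin ligase RNF146, and mutations that weaken this control cause cherubism, an inherited bone disease of the jaw.

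SH3BP2 runs in the forward direction over chr4:2793085-2841096 (GRCh38.p14, 48012 bp), and RefSeq lists 4 starts for its transcripts, at 2793085, 2812291, 2818170 and 2818814. The first start lay under an H3K4me3 peak, the second under no peak of either mark, and the last 2, at 25085 and 25729 bp into the gene, under a shared H3K4me3 peak. The 250 bases before the first 3 starts are printed from RefSeq GRCh38.p14, 5′ to 3′ on the forward strand, because the first and the third moved apart in H3K4me3 and the second carried no peak. Capitals mark the GC box (GGGCGG on either strand, so also CCGCCC) and the E box (CACGTG, which reads the same on both strands). The windows are chr4:2792835-2793084, chr4:2812041-2812290 and chr4:2817920-2818169.
SH3BP2 start 1: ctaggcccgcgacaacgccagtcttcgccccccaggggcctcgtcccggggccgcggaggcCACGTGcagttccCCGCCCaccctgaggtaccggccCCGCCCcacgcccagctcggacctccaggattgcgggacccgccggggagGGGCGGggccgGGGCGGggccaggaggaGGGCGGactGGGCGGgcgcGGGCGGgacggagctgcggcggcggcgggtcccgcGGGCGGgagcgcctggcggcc
SH3BP2 start 2: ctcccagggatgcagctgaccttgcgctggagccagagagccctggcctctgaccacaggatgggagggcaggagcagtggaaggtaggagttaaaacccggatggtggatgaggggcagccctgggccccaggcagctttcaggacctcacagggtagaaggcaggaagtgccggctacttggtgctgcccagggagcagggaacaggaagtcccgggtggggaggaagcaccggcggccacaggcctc
SH3BP2 start 3: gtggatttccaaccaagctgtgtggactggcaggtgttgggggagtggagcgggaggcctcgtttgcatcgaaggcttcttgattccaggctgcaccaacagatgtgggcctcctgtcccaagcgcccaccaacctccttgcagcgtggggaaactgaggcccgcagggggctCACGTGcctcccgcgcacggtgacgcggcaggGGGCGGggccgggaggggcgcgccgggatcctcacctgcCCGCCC

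The window before start 1 held 35 CpG pairs, more than 94.2% of the 35116 RefSeq windows of the same length, and 82.0% of its bases were G or C. It contained 8 GC boxes and 1 E box. Start 2 stood apart with 6 CpG pairs and no match to either motif, and held 3 matches to the ETS core (AGGAAG on either strand). The window before start 3 held 18 CpG pairs, 2 GC boxes and 1 E box, and the window before start 4 held 20 CpG pairs and 4 GC boxes. Across all windows the median was 11 CpG pairs, 42.64% held a GC box, 6.345% an E box and 28.71% an ETS core. The starts of the neighbouring genes TNIP2, ADD1 and SLC75A1 held 29 to 31 CpG pairs, whereas those of NOP14-AS1 and LOC102723763 held 13 and 3. A motif match describes the letters of the window and does not show that a factor binds there.

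The H3K4me3 libraries held 9686420 to 12327122 reads in peaks and the H3K27ac libraries 4360660 to 5410292. At marker genes, all 6 B-cell genes examined had an H3K4me3 peak near an end of the gene, with up to 481 CPM in DMSO (counts-per-million, a peak's reads relative to all reads in tested peaks after scaling between libraries). Among 4 T-cell genes CD3E and CD2 had no such peak and CD8A the highest, at 33.0, and among 4 myeloid genes CSF1R, MPO and CD33 had none and CD14 had 10.7. The H3K4me3 counts of the 2 libraries at 150 nM differed by less than sampling noise (chi-square per degree of freedom 0.941). DMSO replicate 1 and 150 nM replicate 1 did so too (0.962), so the 150 nM libraries were kept as 2 samples, and leaving either out changed no direction at the first SH3BP2 start in either mark. In H3K27ac, reads on a few selected contigs outside the chromosomes split the libraries. DMSO replicate 2 and 150 nM replicate 2 held 71.5 and 45.9 reads-per-million on these contigs, and the other 4 libraries 322 to 446. Since both 500 nM libraries were on the high side, the main H3K27ac results at 500 nM were also computed with this split as a term.

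The H3K4me3 peak over the first SH3BP2 start, chr4:2792719-2795125, was low in DMSO and 150 nM JIB-04 and high in 500 nM JIB-04. It reaches from 366 bp before the start to 2040 bp past it. The 2 DMSO libraries held 161 and 124 reads, the 150 nM libraries 166 and 145, and the 500 nM libraries 851 and 725. In CPM, the DMSO libraries stood at 13.2 and 12.2, the 150 nM libraries at 14.9 and 13.5, and the 500 nM libraries at 72.4 and 74.0. Both 500 nM libraries stood above all 4 others, whereas the 150 nM libraries lay just above the DMSO libraries. The group means were 12.7 ± 0.684, 14.2 ± 0.973 and 73.2 ± 1.19 CPM (SD, n = 2). The fitted log2 fold change was 2.52 (SE 0.075) for 500 nM against DMSO, a 5.75-fold rise, and 2.36 (SE 0.073) for 500 nM against 150 nM. Both comparisons share the 500 nM libraries. For 150 nM against DMSO it was 0.16 (SE 0.11), with the 150 nM libraries close to DMSO. In a bulk assay, more cells carrying the mark and more of the mark per cell cannot be told apart.

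These values chose the gene. The choice ran over 558 H3K4me3 peaks called higher at 500 nM, above the median abundance of all peaks, on chromosomes 1 to 22 or X, with both 500 nM libraries above both DMSO libraries and the 150 nM mean above the DMSO mean. SH3BP2 led them at 2.52, followed by a peak in LINC-PINT at 1.66 and one in CREB5 at 1.45. Without those conditions it ranked 117 among all 20402 tested peaks. Divided by peak length, the level was 5.26 CPM per kb with DMSO, 5.89 with 150 nM and 30.4 with 500 nM. Among 9977 tested H3K4me3 peaks that overlap an annotated start, 6.6% were lower than it with DMSO, 7.2% with 150 nM and 47.6% with 500 nM. The peak thus moved from the weak end of start peaks to about their median, which was 31.1 CPM per kb at 500 nM.

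**Figure D1:**
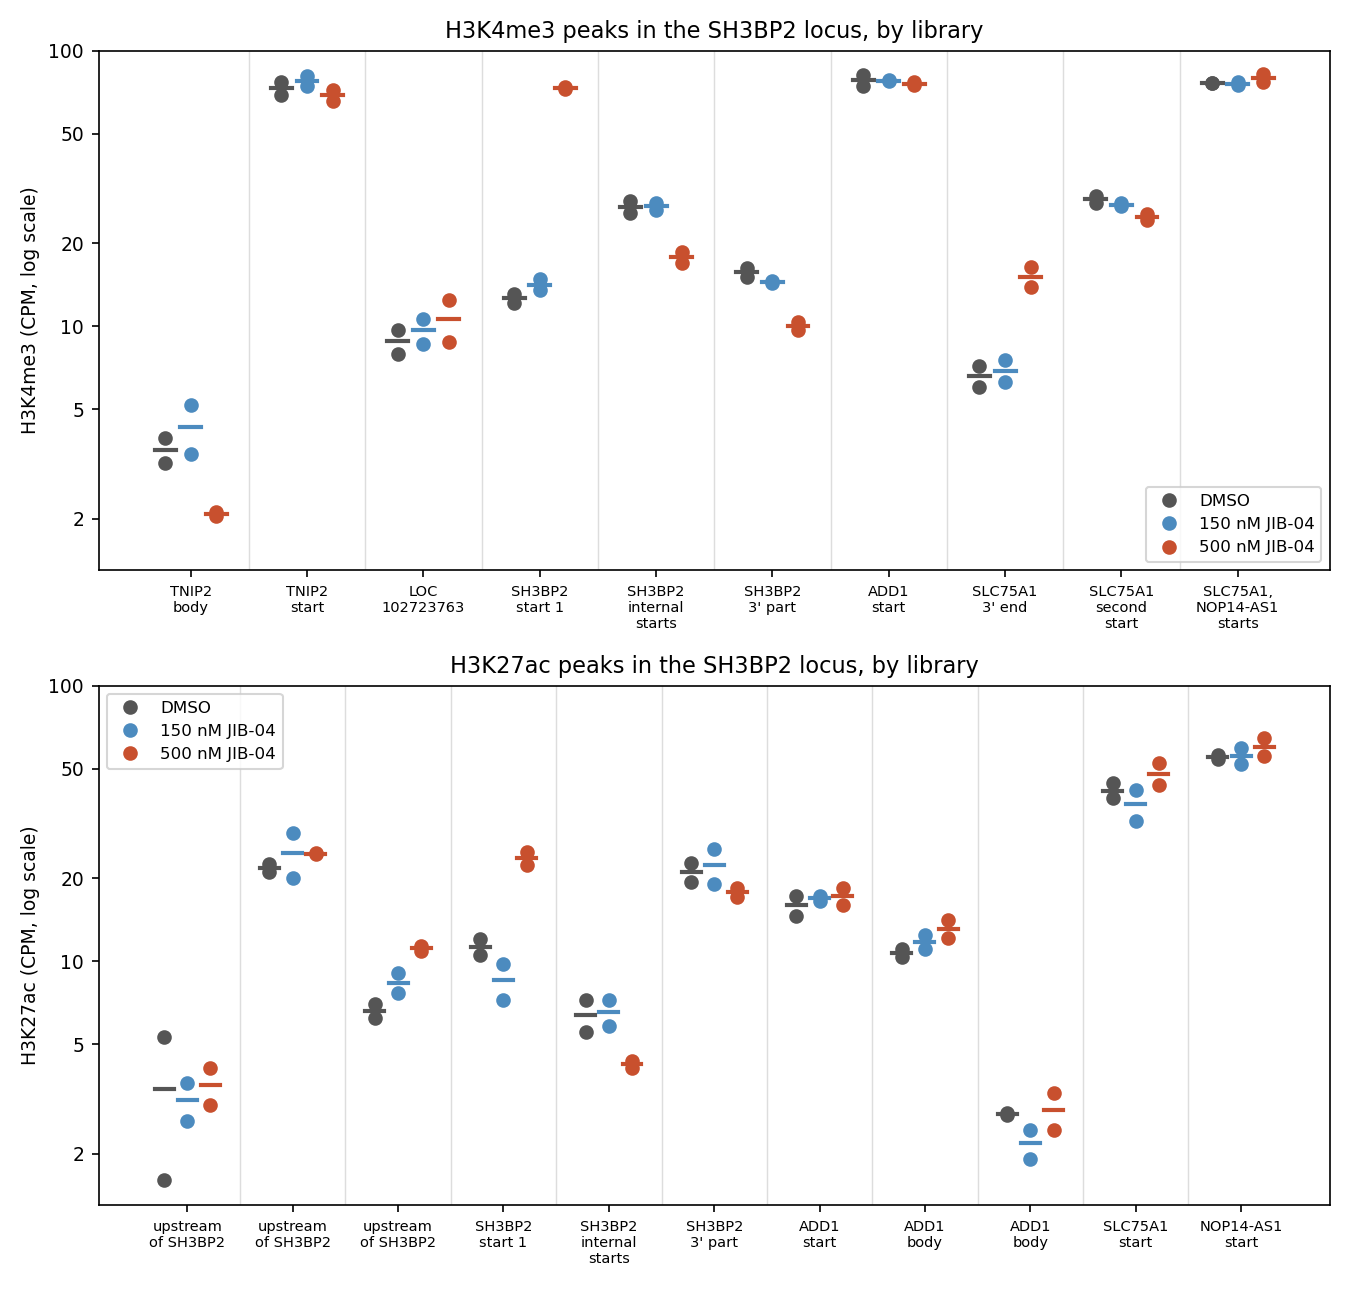
H3K4me3 (top) and H3K27ac (bottom) at peaks of the SH3BP2 locus in genome order, in CPM on a log scale; each point is a library and each bar the mean of a group. The H3K27ac panel leaves out the tested peaks more than 10 kb before the first start. At SH3BP2 start 1 both 500 nM libraries lie above the other 4 in both marks, while the neighbouring starts stay close together.

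The internal starts of the same gene went the other way. Their H3K4me3 peak, chr4:2817737-2818934, held 28.5 and 25.7 CPM in the DMSO libraries, 26.5 and 28.0 in those of 150 nM, and 17 and 18.6 in those of 500 nM. Both 500 nM libraries lay below the other 4. The log2 fold change was -0.62 (SE 0.092) against DMSO and -0.62 (SE 0.093) against 150 nM, the latter with an adjusted p of 1.47e-07 by edgeR's quasi-likelihood test. For 150 nM against DMSO it was 0.00088 (SE 0.083). Per length, this peak fell from 22.6 CPM per kb in DMSO to 14.9 at 500 nM, that is, from above 29.4% to above 16.2% of start peaks.

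A further H3K4me3 peak in the 3′ part of SH3BP2, chr4:2837646-2839079, overlapped no annotated start. The DMSO libraries held 16.3 and 15.1 CPM, the 150 nM libraries 14.6 and 14.4, and the 500 nM libraries 10.4 and 9.70, again with both 500 nM libraries lowest. The log2 fold change was -0.65 (SE 0.13) against DMSO and -0.53 (SE 0.13) against 150 nM (adjusted p 7.24e-04, edgeR). SH3BP2 therefore held 3 H3K4me3 peaks, of which 1 was higher and 2 were lower at 500 nM, within a single gene.

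Because of these opposite changes, the distribution of reads along the locus was examined, which does not depend on how libraries are scaled to each other. The first-start peak held 4.0% and 3.7% of all H3K4me3 reads in peaks of the locus in the DMSO libraries (95% Wilson intervals 3.42 to 4.63% and 3.09 to 4.36%), and 4.5% and 4.0% at 150 nM. At 500 nM it held 19.3% and 19.4% (18.2 to 20.5% and 18.1 to 20.7%). The intervals cover counting error only. This share contains the peak that chose the gene, as does the H3K4me3 ratio that follows, so both are descriptions without a test. The ratio of reads at the first start to reads at the internal starts was 0.461 and 0.473 with DMSO, 0.561 and 0.482 with 150 nM, and 4.26 and 3.98 with 500 nM. H3K4me3 reads at the internal starts thus outnumbered those at the first start in the 4 libraries of DMSO and 150 nM, and the order was turned in both 500 nM libraries. The order was also turned per length, from 5.26 CPM per kb at the first start and 22.6 at the internal starts with DMSO to 30.4 and 14.9 with 500 nM.

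**Figure D2:**
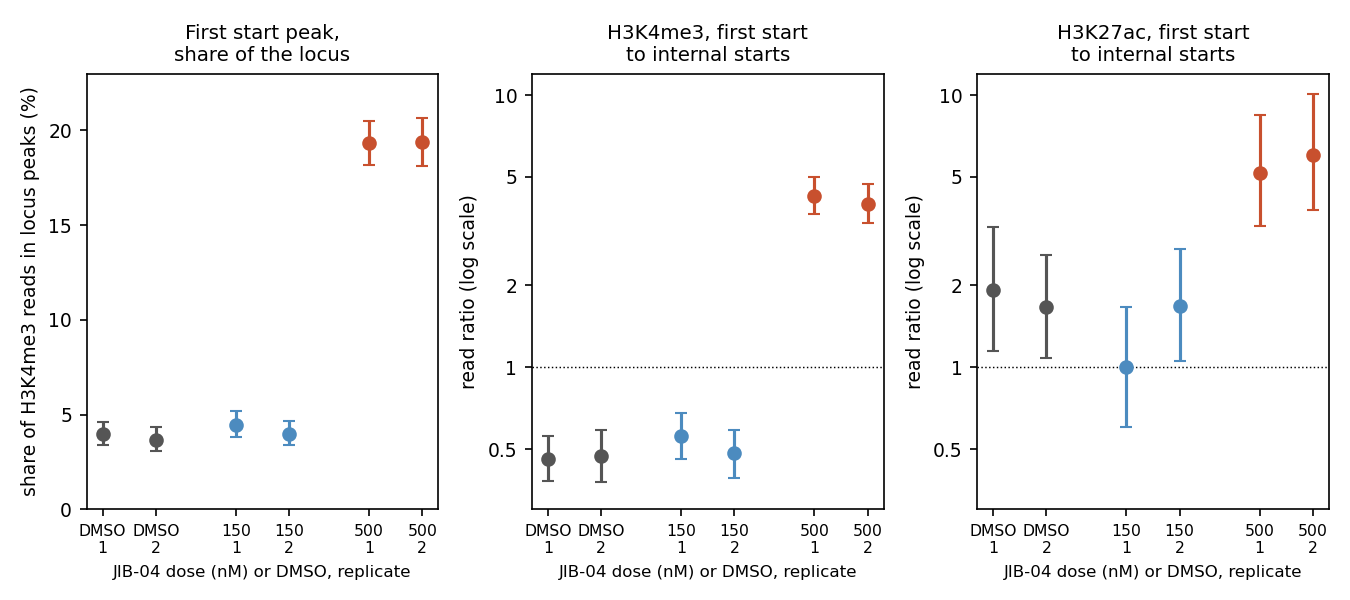
Share of the locus's H3K4me3 reads that fell in the first SH3BP2 peak (left), and ratio of reads at the first start to reads at the internal starts for H3K4me3 (middle) and H3K27ac (right, log axes), for each library; bars are 95% intervals for counting error. The 500 nM libraries lie above the other 4 in each panel, and the H3K4me3 ratio passes from below 1 to about 4.

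The neighbouring genes showed no comparable change at their starts. The start of TNIP2, which encodes a partner of the NF-kappaB inhibitor A20, lies on the side before SH3BP2, and its H3K4me3 peak (chr4:2754847-2757131) ranged from 65.9 to 80.7 CPM over the 6 libraries, with a log2 fold change of -0.086 (SE 0.053) against DMSO. The start of ADD1, which encodes alpha-adducin of the membrane skeleton, lies 2747 bp past the end of SH3BP2. Its peak (chr4:2842946-2845005) ranged from 74.8 to 81.6 CPM, with a log2 fold change of -0.048 (SE 0.048). The peak shared by the starts of SLC75A1, an organic anion transporter gene earlier called MFSD10, and the antisense transcript NOP14-AS1 (chr4:2934736-2936524) changed by 0.059 (SE 0.048). Divided by peak length, these 3 peaks held 30.1, 36.9 and 44.6 CPM per kb at 500 nM, and the peak at the second SLC75A1 start 13.9, so the first SH3BP2 start at 30.4 lay within the range of the 4 neighbouring starts.

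Not all H3K4me3 outside SH3BP2 was level. A peak over the 3′ end of SLC75A1 (chr4:2930914-2932601) held 6.04 and 7.17 CPM with DMSO, 6.27 and 7.54 with 150 nM, and 16.4 and 13.9 with 500 nM, with log2 fold changes of 1.22 (SE 0.15) against DMSO and 1.14 (SE 0.15) against 150 nM (adjusted p 3.60e-09, edgeR). The peak at the second SLC75A1 start (chr4:2932748-2934546) had a log2 fold change of -0.20 (SE 0.081) against DMSO, and the small peak in the body of TNIP2 (chr4:2746659-2747332) -0.75 (SE 0.28). The peak over LOC102723763, an uncharacterised gene, changed by 0.30 (SE 0.16), with overlapping groups. Away from its own peaks, then, the locus held 1 H3K4me3 gain that was called, which began 137829 bp past the first SH3BP2 start.

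Of the 9 H3K4me3 peaks besides that at the first start, 1 was called higher and 4 lower at 500 nM against DMSO (adjusted p under 0.05, edgeR), where 39.4% of all 20402 tested peaks were called, 20.7% higher and 18.7% lower. That contrast chose the gene, and nothing is read from the count. Against 150 nM, 1 was called higher and 4 lower, with 39.2% of all peaks called. The lower ones included the start of TNIP2 (log2 fold change -0.18, SE 0.053, adjusted p 0.00539, edgeR) in place of the second SLC75A1 start. For 150 nM against DMSO edgeR called none of the 9, none had an unadjusted p under 0.05, DESeq2 called none, and 0% of all peaks were called. The call at the second SLC75A1 start held in 6 of the 15 settings tried and that in the TNIP2 body in 10 of 15, while those at the internal starts, the 3′ part of SH3BP2 and the SLC75A1 3′ end held in 15 of 15. The count of 5 against DMSO became 3 in DESeq2 and without DMSO replicate 2 or 500 nM replicate 1, and that against 150 nM became 3 in DESeq2.

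H3K27ac comes from separate libraries that played no part in choosing the gene, and it also rose at the first start. The peak chr4:2793574-2794816 lies 489 to 1731 bp past that start, wholly within the H3K4me3 peak. The DMSO libraries held 46 and 60 reads (10.6 and 12.03 CPM), the 150 nM libraries 34 and 52 (7.22 and 9.80 CPM) and the 500 nM libraries 119 and 127 (22.4 and 24.8 CPM). Both 500 nM libraries stood above the other 4, and both 150 nM libraries lay below both DMSO libraries. The log2 fold change was 1.06 (SE 0.19, adjusted p 6.93e-04, edgeR) for 500 nM against DMSO and 1.46 (SE 0.20, adjusted p 1.49e-06) for 500 nM against 150 nM. For 150 nM against DMSO it was -0.40 (SE 0.23, adjusted p 1.00) and did not pass. H3K27ac in this peak thus rose 2.08-fold. The 5.75-fold rise of H3K4me3 is over a wider peak and is the value that chose the gene, so the 2 sizes are not compared.

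The call against 150 nM held in 16 of 16 settings and that against DMSO in 12 of 16. The latter was lost without DMSO replicate 1 (log2 fold change 0.97, adjusted p 0.0917, edgeR), without DMSO replicate 2 (1.15, 0.0648), without 500 nM replicate 2 (0.98, 0.139) and in DESeq2's Wald test (1.06, 0.0700). With the contig split as a term, a setting chosen after seeing the data, it was 1.22 (adjusted p 1.26e-05, edgeR), and 1.62 (adjusted p 3.59e-10) against 150 nM. The term raised the calls over all peaks against DMSO from 499 to 1274, while the calls in the locus stayed at 1 and those in the partner genes described last at 0. Within the high-contig libraries the mean of the 2 at 500 nM exceeded DMSO replicate 1 by 1.16 on the log2 scale. Among 54037 tested H3K27ac peaks it ranked 824 by fold change and 138 among the 374 that were called higher.

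At the internal starts H3K27ac was sparse. The peak chr4:2818189-2818831 held 24 and 36 reads with DMSO, 34 and 31 with 150 nM, and 23 and 21 with 500 nM, with a log2 fold change of -0.60 (SE 0.31, adjusted p 0.459, edgeR). The 500 nM libraries were the lowest 2 but the difference did not pass at this depth. The peak in the 3′ part (chr4:2837635-2839035) likewise changed by -0.24 (SE 0.18). The ratio of H3K27ac reads at the first start to those at the internal starts was 1.92 and 1.67 with DMSO, 1.00 and 1.68 with 150 nM, and 5.17 and 6.05 with 500 nM. The 500 nM libraries stood apart from DMSO, and the exact permutation test (two-sided) gave p = 0.3333, the smallest that 2 against 2 libraries can give.

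Of the 23 tested H3K27ac peaks of the locus, that at the first start was the 1 called higher and 0 were called lower at 500 nM against DMSO by edgeR, where 0.923% of all peaks were called, 0.692% higher. DESeq2 called 0, and 3 of the 23 had an unadjusted p under 0.05. The median log2 fold change of the 23 was 0.12, beside -0.0040 over all tested peaks. Against 150 nM the first start was again the 1 call (1.27% of all peaks were called, 1.09% higher). For 150 nM against DMSO edgeR and DESeq2 called 0 of the 23, 0 had an unadjusted p under 0.05, and 0.00185% of all peaks were called. A peak 4.6 kb before the first start, chr4:2787595-2788503, held 6.21 and 7.02 CPM with DMSO, 7.65 and 9.05 with 150 nM, and 10.9 and 11.3 with 500 nM. Its groups did not overlap, and its change of 0.74 (SE 0.25, adjusted p 0.156, edgeR) was called in 3 of 16 settings. The H3K27ac peaks over the starts of ADD1, SLC75A1 and NOP14-AS1 changed by 0.11 to 0.21, and none was called by edgeR or had an unadjusted p under 0.05. Over the 3′ end of SLC75A1, where H3K4me3 had risen, the H3K27ac peak chr4:2930650-2934266 also spans a start and changed by 0.21 (SE 0.14). The 8 tested peaks in FAM193A changed by -0.34 to 1.92. The 1.92 belonged to a peak of 0.646 CPM in DMSO, chr4:2721832-2722057, with an SE of 0.72 and an adjusted p of 0.248 (edgeR). The 4 peaks in or beside TNIP2 changed by -0.15 to 0.32, the other 2 before SH3BP2 by 0.083 and 0.17, and the 2 in the body of ADD1 by 0.295 and 0.049.

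**Figure D3:**
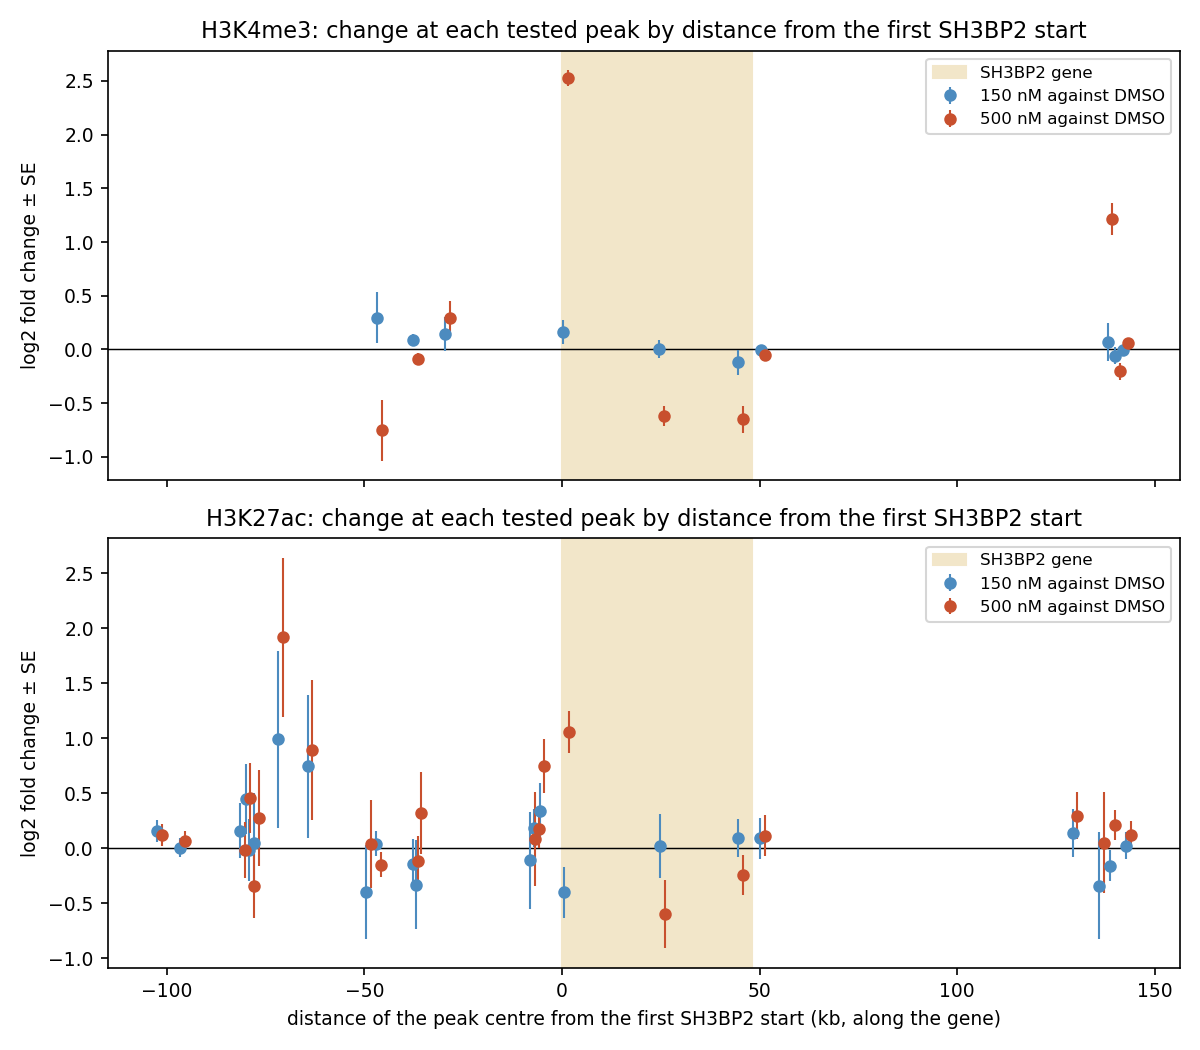
Log2 fold change with its standard error for each tested peak of the locus, by the distance of the peak's centre from the first SH3BP2 start in kb (H3K4me3 top, H3K27ac bottom); the band is the gene, and the points of the 2 doses are set slightly apart. At 500 nM the first start is the high point of H3K4me3 at 2.52 and the 2 other peaks of the gene lie near -0.6, while the H3K4me3 values of 150 nM stay within 0.30 of 0.

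The gap between the starts of SH3BP2 was set beside other genes. Among 481 genes with tested H3K4me3 peaks at separate annotated starts and a mean of at least 20 reads, the gap in log2 fold change between start peaks at 500 nM was 3.14 in SH3BP2, followed by 2.94 in both MAP2K6 and ANKRD28, and the median gap was 0.23. In 37 of the 481 (7.69%) a start peak was called higher and another lower. Among 437 genes with H3K27ac peaks at separate starts, the gap of SH3BP2 was 1.66 and that of ANKRD28, the next, 1.63, with a median of 0.23. The H3K4me3 gap contains the value that chose the gene and is a description. ANKRD28 and MAP2K6 were named after their values were seen. The H3K27ac gap comes from other libraries, but was not tested, and rests on 21 to 36 reads per library at the internal starts.

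**Figure D4:**
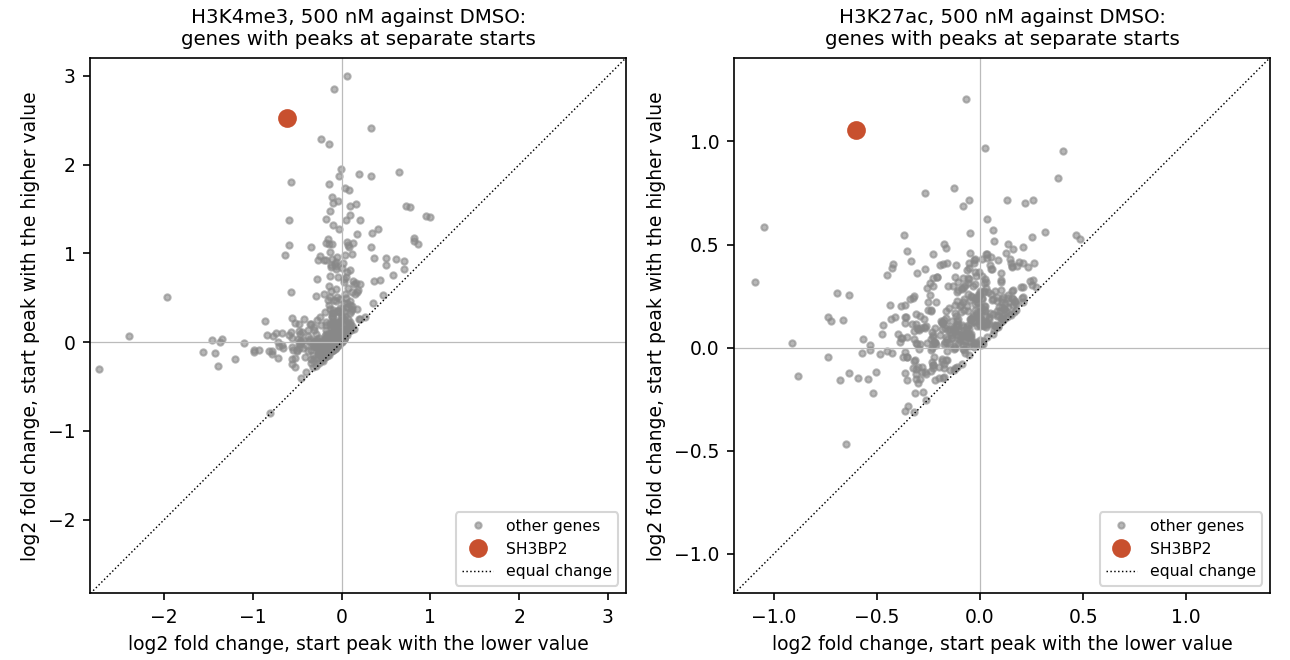
Log2 fold change at 500 nM against DMSO for genes with peaks at separate starts, the start peak with the lower value on the horizontal axis and that with the higher value on the vertical axis; each point is a gene, and the dotted line marks equal change. SH3BP2 lies among the genes far from the line in H3K4me3 (gap 3.14, 481 genes) and in H3K27ac (gap 1.66, 437 genes).

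The genes whose H3K4me3 peak was most like that of SH3BP2 across the 6 libraries were found by the distance between log2 CPM profiles, each less its DMSO mean, among 9087 peaks near gene ends. They were CHMP4C, a subunit of the membrane-remodelling ESCRT-III complex, at a distance of 1.32, DUSP6, a phosphatase that inactivates ERK, at 1.62, MDGA1 at 1.84, HUNK at 1.91 and FERMT2, an integrin-binding adapter, at 1.95. The median distance was 3.63. Their H3K4me3 went from 21.3 to 29.1 CPM in DMSO to 55.0 to 69.0 CPM at 500 nM, with log2 fold changes of 1.18 to 1.65. All 5 lie below SH3BP2, but SH3BP2 was chosen for the size of its gain, so nothing is read from that order. Their H3K27ac was tested independently. It rose at CHMP4C by 0.92 (adjusted p 4.57e-04, edgeR), while the 1.19 of DUSP6 (adjusted p 0.130), the 0.72 of FERMT2 (0.502) and the 0.43 of MDGA1 (0.676) did not pass, and HUNK had no H3K27ac peak.

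The partners of the SH3BP2 protein were examined in a list of 28 genes, all in the contrast that chose the gene, 500 nM against DMSO. Of their 32 H3K4me3 peaks at annotated starts, in 26 genes, 9 were called higher and 13 lower, or 68.8%, beside 39.4% of all peaks, a share from which nothing is read here. Over all 74 H3K4me3 peaks of the list edgeR called 38 and DESeq2 22. The median log2 fold change at the starts was -0.046, beside -0.0063 over all peaks. The 10 kinases and receptors had 14 such peaks, 5 higher and 5 lower. SRC, a tyrosine kinase, had small peaks near both ends of the gene. They went from 1.32 to 5.71 CPM (2.07, SE 0.28) and from 2.93 to 6.14 CPM (1.07, SE 0.22). ABL1, whose kinase binds the SH3BP2 protein, had a small peak at an annotated start that went from 0.302 to 1.76 CPM (2.49, SE 0.52). The far larger ABL1 peak, chr9:130712339-130715895, lay at none of the RefSeq starts listed here, a list that may lack some starts. This larger peak went from 93.9 to 85.5 CPM and was called lower (-0.13, SE 0.046). Among the kinases of lymphocyte receptor signalling, LCK was called lower at both of its start peaks (-0.72, SE 0.079, and -0.18, SE 0.057). SYK was called lower at 1 of 2 (-0.48, SE 0.058), and the other changed by -0.015 (SE 0.044). BTK, the kinase that activates phospholipase C gamma in B cells, was likewise called lower at 1 of 2 (-0.27, SE 0.078), and the other changed by 0.015 (SE 0.061). By contrast, the start peak of FYN was called higher (0.29, SE 0.047). Those of LYN (-0.047, SE 0.031) and ZAP70 (0.69, SE 0.37) were not called. The list's kinases thus moved in both directions.

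The 14 adapters and enzymes had 14 start peaks, 4 higher and 6 lower. LAT, the membrane adapter of T cells, had a small peak that went from 0.401 to 1.11 CPM (1.45, SE 0.54). VAV2, a guanine nucleotide exchange factor, rose from 32.0 to 44.4 CPM (0.46, SE 0.070). PLCG2, the phospholipase C gamma of B cells, fell from 60.7 to 45.6 CPM at its listed start (-0.41, SE 0.060). A larger PLCG2 peak at no listed start, chr16:81778773-81781916, held 136 CPM in both groups (0.0023, SE 0.039). The larger of the NFATC1 start peaks fell from 346 to 270 CPM (-0.36, SE 0.030), while the smaller was called higher (0.27, SE 0.088). PIK3R1, the regulatory subunit of phosphoinositide 3-kinase, also had a start peak called higher (0.47, SE 0.12) and another called lower (-0.15, SE 0.036). Of the 4 genes for turnover of the protein, RNF146 (-0.15, SE 0.041) and SIAH2 (-0.15, SE 0.033) were called lower, and the start peaks of TNKS and TNKS2 were not called. The list's H3K27ac was tested on its own libraries. Of 285 peaks in 24 genes, edgeR called 0, where it called 0.923% of all tested peaks, and DESeq2 called 0. An unadjusted p under 0.05 was found for 26 of them, or 9.12%, beside 11.5% of all peaks. The median log2 fold change was 0.012, beside -0.0040 over all peaks. The count of 0 became 7 when only the 4 libraries of the contrast were fitted or 150 nM replicate 1 was left out, and 6 without 150 nM replicate 2. SRC, whose small H3K4me3 peaks rose, had no H3K27ac peak in the deposited set. With no H3K27ac call in the list at 500 nM against DMSO, no member could be called in both marks.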

How the data were processed

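The authors deposited read counts per consensus peak, not normalized, in 1 table per mark. Per the file headers they were made with featureCounts 2.0.1, unstranded, allowing a read to count in several peaks at a minimum overlap fraction of 0.2, with the option for paired reads, although per the labels' protocols reads were single and 50 bp long. The submitters' processing notes name GRCh38, Trim Galore 0.6.7, BWA 0.7.17-r1188, Picard 2.27.4, MACS2 2.2.7.1, deepTools 3.5.1 and edgeR 3.42.4, with no role or order. Coordinates are the deposited start plus 1.

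Each mark's 6 libraries were fitted together with edgeR 4.0.16 (filterByExpr, TMM scaling, quasi-likelihood test, Benjamini-Hochberg adjustment over all tested peaks of the mark). A call is an adjusted p under 0.05. The scaling is relative, so a uniform change over all peaks would not be seen. The SE is the log2 fold change divided by the root of the F statistic. Alternatives included other scalings, filters, DESeq2 1.42.0 and each library left out. In simulated data with 200 peaks changed by 1 on the log2 scale at 500 nM against DMSO, 84.5% were recovered over 20402 H3K4me3 peaks and 52.5% over 54037 H3K27ac peaks. Peaks were placed with RefSeq GRCh38.p14 starts, within 1000 bp where called near. For 6 genes of the partner list no start was listed, and either gene end was used. Some listed genes are not reported here by name. The locus, the gene lists and the rule for named genes were chosen with earlier results of these data known. That rule names SH3BP2, genes with a peak in the locus, listed partners whose start peak changed by at least 1 on the log2 scale, the 5 most alike genes and the markers, and the other partners named were chosen after their values were seen. The 18 libraries of input, H3K9me2 and H3K9me3 were not analysed here.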

Additional observations from a re-analysis of the deposited data

How the results depend on the processing

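No result recomputed here changed direction under an alternative. The SH3BP2 H3K4me3 change at 500 nM against DMSO ranged from 2.47 to 2.59 over 14 alternatives. With a replicate block it was 2.52 and the H3K27ac change at the first start 1.06 (adjusted p 6.79e-06, edgeR). The deviations of same-numbered replicates had correlations of 0.0026 to 0.13 between groups, the highest for DMSO with 150 nM in H3K27ac. The labels do not say whether the numbers pair the libraries, and these values do not settle it. The block raised the calls over all peaks from 499 to 1150 in H3K27ac and from 8034 to 8274 in H3K4me3, and the partner genes' H3K27ac calls from 0 to 2. Fitting only the 4 libraries of the contrast gave 7 partner calls and 2 locus calls in H3K27ac. DESeq2's Wald test gave 0 locus calls in H3K27ac (first start 1.06, adjusted p 0.0700), 3 of the other H3K4me3 peaks of the locus in place of 5 against DMSO and 3 against 150 nM, and 22 partner calls in H3K4me3 in place of 38. The count of 5 was also 3 within 50 kb and at a mean count of at least 50. The first peak's share of locus reads at 500 nM was 28.3% within 50 kb and 13.8% within 200 kb. Leaving out each library in turn gave 3 to 5 other H3K4me3 calls against DMSO and 4 to 5 against 150 nM, 31 to 38 partner calls in H3K4me3 and 0 to 7 in H3K27ac, 0 to 2 locus calls in H3K27ac against DMSO and 1 to 2 against 150 nM, and an H3K27ac change at the first start of 0.97 to 1.15. The partner H3K27ac count reached 7 when 150 nM replicate 1 was left out and 6 when 150 nM replicate 2 was. The cause was not tested. Depth limits H3K27ac at the internal starts, where 21 to 36 reads per library carry the values.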

Other observations

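PLCG2, the phospholipase C gamma through which the B-cell receptor signals, also showed opposite H3K4me3 changes within the gene. Unlike SH3BP2 at its first start, PLCG2 was lower at its listed start at 500 nM against DMSO (-0.41, SE 0.060), and its other called peaks went both ways. Those at chr16:81818256-81819595 (-0.49, SE 0.20), chr16:81827367-81827895 (-1.725, SE 0.37) and chr16:81830784-81832492 (-0.49, SE 0.084) were called lower. The faint peak chr16:81863772-81864089 was called higher (1.29, SE 0.47). A strong peak at no listed start, chr16:81778773-81781916, held 136 CPM in DMSO and at 500 nM (0.0023, SE 0.039). Its broad peak chr16:81783426-81790703 was lower at 500 nM (161 ± 4.57 CPM in DMSO and 107 ± 7.49, SD, n = 2, log2 fold change -0.58, SE 0.040), while a weak peak in the body, chr16:81841738-81843324, went from 1.81 ± 0.361 to 19.0 ± 0.422 CPM (3.40, SE 0.19). These peaks were chosen among those of PLCG2 after their values were seen. Within 1 Mb on either side of SH3BP2, 10 of the 29 tested H3K4me3 peaks other than that at the first start were called higher and 7 lower at 500 nM against DMSO, beside 39.4% of all tested peaks called, and the largest change among them was 1.89.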
